A study of Homo sapiens with 6 samples.

Results

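The 9 genes described here are DISP1, DISP2, PTCH1, SMO, SUFU, GLI1, GLI2, GLI3 and HHIP. They are core genes of the human Hedgehog signalling pathway, with DISP1, which releases its ligand, and the related gene DISP2. They were taken by symbol, with every probe set of the array that the annotation assigns to 1 gene, which gave 23 probe sets of 41097 for 9 of 19775 genes. DISP2 was chosen by its measured intensity, which was higher with MIST1 than in either control array of each cell line, so its values across the 3 conditions are a description with no test. The other 8 genes were taken as partners in the pathway.

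The study introduced MIST1 (BHLHA15), a basic helix-loop-helix transcription factor of secretory cells, into AGS and HGC-27, which are established human gastric carcinoma lines. Each line gave 3 Affymetrix arrays of total RNA, 1 per condition. The parental cells were untransfected, and the labels mention no sorting of them. The GFP control received 3 µg of empty vector with 1.5 µg of a GFP plasmid. The MIST1 cells received 3 µg of MIST1 plasmid with the same GFP plasmid. Both transfected conditions were sorted for GFP at 24 h and grown for a further 24 h. The sources used here do not give the promoter that drives MIST1. Each condition of a line was measured once, and each transfected condition is 1 transient transfection. Spread can therefore be estimated only by setting the lines side by side. A bulk array cannot tell fewer cells that express a gene from less RNA per cell.

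In Hedgehog signalling, a lipid-modified ligand leaves the producing cell through the Dispatched protein DISP1 and binds Patched (PTCH1) on the receiving cell. Patched then no longer holds Smoothened (SMO) inactive, and the GLI transcription factors escape SUFU and enter the nucleus. PTCH1, HHIP and GLI1 are themselves transcribed in response, and are widely read as a sign of pathway activity. In the stomach the pathway is known for SHH made by the acid-secreting parietal cells.

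The deposited values are probe set intensities on a linear scale. Array medians ran from 49.12 to 51.96, and log2 intensities correlated at 0.957 to 0.976 (Pearson, across probe sets) between arrays of 1 line and at 0.838 to 0.856 between lines. For BHLHA15 the AGS intensities were 66.3, 75.8 and 72.5 (in the order parental, GFP control, MIST1, as in all lists of 3 values here), and the HGC-27 intensities 41.1, 61.9 and 58.7. The sources used here do not say whether its probes lie in the part carried by the plasmid, so it does not check the labels. RAB3D, a vesicle GTPase reported as a MIST1 target, had intensities of 603, 540 and 1308 (AGS) and 414, 504 and 1783 (HGC-27), highest in the array labelled MIST1 of each line. Of 6 epithelial markers, all were above the median of all values on every AGS array, and only KRT8 was so in HGC-27. The summed intensity of the 6 was 39173 to 46225 in AGS and 1455 to 1723 in HGC-27. Leukocyte markers summed to 2120 to 4089 in AGS, mostly LYZ, and to 111 to 118 in HGC-27.

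DISP2 encodes a Dispatched family membrane protein related to DISP1, the transporter that releases lipid-modified Hedgehog ligand. Its 1 probe set, 229579_s_at, had intensities in AGS of 53.1 (parental), 121 (GFP control) and 183 (MIST1). In HGC-27 the same probe set read 56.2, 111 and 317. The parental values lay close to the median of all values, 50.53, and the order of the conditions was the same in both lines. The step from GFP control to MIST1 was 1.51-fold for AGS but 2.86-fold for HGC-27. The step from parental to GFP control, which involves no MIST1, was 2.28-fold for AGS and 1.97-fold for HGC-27, so for AGS it was the larger step. From parental to MIST1 the steps make 3.45-fold (AGS) and 5.64-fold (HGC-27). The suffix _s_at marks probes that can match more than 1 transcript. These values chose DISP2 and carry no test.

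**Figure D1:**
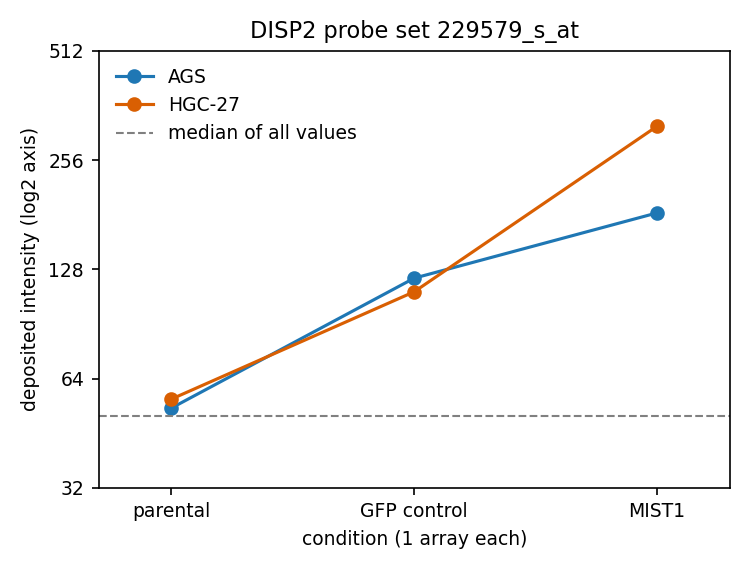
DISP2 intensity (log axis) on each of the 6 arrays, by condition and cell line, with 1 point per array and no error bar because there is 1 array per condition and line. The GFP control lies between parental and MIST1 in both lines, and the MIST1 array of HGC-27 is the highest at 317.

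Among the 25954 probe sets that passed the filter on dim signal, DISP2 ranked 298 from the top in AGS by its ratio of MIST1 to GFP control, and 11 in HGC-27. Requiring a MIST1 intensity at least 1.5-fold above both controls in both lines left 30 probe sets, 0.116% of those tested, and DISP2 was the only gene of the pathway among them. At a limit of 2-fold DISP2 was no longer included, because of its AGS value. The ranks and counts here use the values that chose DISP2, so its place in them is a description only. A count added after seeing the data asked for a step of at least 1.5-fold both from parental to GFP control and from GFP control to MIST1, in both lines. It left 3 probe sets, 0.0116% of those tested, which were those of DISP2, KIAA0513 and PRODHLP. KIAA0513 read 52.2, 83.6 and 170 (AGS) and 20.5, 70.2 and 130 (HGC-27). PRODHLP read 10.2, 42 and 77.7 (AGS) and 24.9, 38.1 and 70.3 (HGC-27), where its parental AGS value lies under the floor of 17.6 applied to all intensities.

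Libraries of parental and transfected cells also differed in RNA features. A probe set for 18S ribosomal RNA read 1142, 48.2 and 46.8 (AGS) and 371, 52 and 52.7 (HGC-27). MALAT1, a nuclear long noncoding RNA, read 3685, 390 and 529 (AGS) and 1566, 324 and 382 (HGC-27). Both were high in the parental array of each line, the arrays in which DISP2 was lowest, and their part in the DISP2 values was not tested. Between GFP control and MIST1 neither feature differed by as much as it did between parental and GFP control.

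The 250 bases before the DISP2 start are shown because MIST1 binds E-boxes, the CANNTG motif of basic helix-loop-helix factors. They lie at chr15:40357969-40358218 on the plus strand (RefSeq, GRCh38.p14), with the 1 E-box in capitals.
DISP2: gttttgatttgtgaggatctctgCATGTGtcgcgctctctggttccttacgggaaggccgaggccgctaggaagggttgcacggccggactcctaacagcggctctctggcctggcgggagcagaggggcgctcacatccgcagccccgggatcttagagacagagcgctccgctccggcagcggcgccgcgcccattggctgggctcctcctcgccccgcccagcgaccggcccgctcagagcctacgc
CANNTG reads the same on both strands, and 68.7% of 35116 RefSeq promoter windows of 300 bases hold it. CATATG, an E-box with a TA core reported for MIST1, was found in none of the 15 windows of the 7 member genes that matched the table, against 3.04% of all windows. Neither count says whether MIST1 binds there.

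The genes annotated beside DISP2 differed less between GFP control and MIST1 than DISP2 did. DISP2 was chosen for its higher MIST1 values and its neighbours were not, so this comparison is a description only. CCDC9B, the nearest measured gene on one side, read 82.6, 139 and 187 (AGS) and 68.5, 85.3 and 74.7 (HGC-27), so it was higher with MIST1 than with GFP in AGS alone. KNSTRN, a kinetochore gene and the nearest on the other side, read 1112, 831 and 852 (AGS) and 1296, 988 and 1066 (HGC-27). Over the 6 measured neighbours (PAK6, INAFM2, CCDC9B, KNSTRN, IVD and BAHD1) the log2 difference of MIST1 from GFP control lay between -0.31 and 0.44, against 0.59 in AGS and 1.52 in HGC-27 for DISP2.

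The 5 genes with the profile most like DISP2 were UBASH3B, YWHAQ, ECHDC3, FAM111A-DT and WDR47. Likeness was Pearson's r over the 6 arrays after centring log2 values within each line, and ran from 0.9998 for UBASH3B to 0.9978 for WDR47. These are the highest of 25954 values over few arrays that share their transfections, so they are a description. WDR47, a microtubule-associated protein, read 329, 447 and 501 (AGS) and 367, 458 and 630 (HGC-27), the same order of conditions with smaller steps. Among the pathway's own probe sets r with DISP2 was highest for GLI3 227376_at, at 0.87, and lowest for HHIP 237466_s_at, at -0.63.

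DISP1, the established ligand transporter, differed from DISP2 in its profile. Its probe set read 81, 84.5 and 58.6 (AGS) and 556, 751 and 814 (HGC-27), so every HGC-27 array was above every AGS array. DISP1 was 9.47-fold higher in HGC-27, a log2 difference (AGS minus HGC-27) of -3.24 with a standard error (SE) of 0.20 (limma with condition and cell line in the fit, Benjamini-Hochberg adjusted p = 1.59e-05). DISP2, in contrast, overlapped between the lines, with a log2 difference of -0.25 (SE 0.20, 95% interval -0.73 to 0.23, limma adjusted p = 0.327). The arrays compared include those that chose DISP2, and its steps between conditions widen the range of each line. Its overlap is therefore a description.

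Apart from DISP2, each of the genes had at least 1 probe set that differed between the lines. Of 19 member probe sets tested, 17 from 8 genes were higher in HGC-27, where 26.9% of all probe sets tested were, and no member probe set was higher in AGS, where 32.9% were. The same 17 had every HGC-27 array above every AGS array, which held for 27.1% of probe sets tested. The 2 not called were DISP2 and SUFU 224203_at. Because 59.8% of probe sets were called in one direction or the other, the size of the difference was also counted. A count added after seeing the data asked for a call, at least 4-fold and no overlap of the lines' arrays. It held for 10 of 19 member probe sets, from DISP1, PTCH1, SMO, GLI3 and HHIP, where 6.11% of probe sets tested met it. The filter bears on these counts, since 10 of the 19 passed it only through the HGC-27 arrays, among them 8 of the 10 with a gap of at least 4-fold. They are the tested probe sets of SMO, GLI3 and HHIP, and those of PTCH1 other than 209815_at. Their line differences, here and below, are therefore a description. Of the 9 member probe sets above the median on all 6 arrays, 7 were called higher in HGC-27, against 23.9% of such probe sets. Of the same 9, 2 (DISP1 and PTCH1 209815_at) met the 4-fold count, against 1.22% of such probe sets. Of all 23, without any filter or test, 18 had every HGC-27 array above every AGS array, against 20.5% of all single-gene probe sets. The replicates here are the 3 conditions of each line, so these tests compare 2 cultured lines and not kinds of tumour. Epithelial, mesenchymal and fibroblast markers moved with the same division of the arrays. The 4 mesenchymal markers summed to 340 to 371 in AGS and 13879 to 15155 in HGC-27, mostly through VIM, while CDH2 overlapped between the lines at 44.4 to 57.6. The 5 fibroblast markers, COL3A1, DCN and LUM among them, summed to 724 to 1393 in AGS and 17971 to 20435 in HGC-27, where all 5 were above the median. The part of these markers in the differences was not tested.

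**Figure D2:**
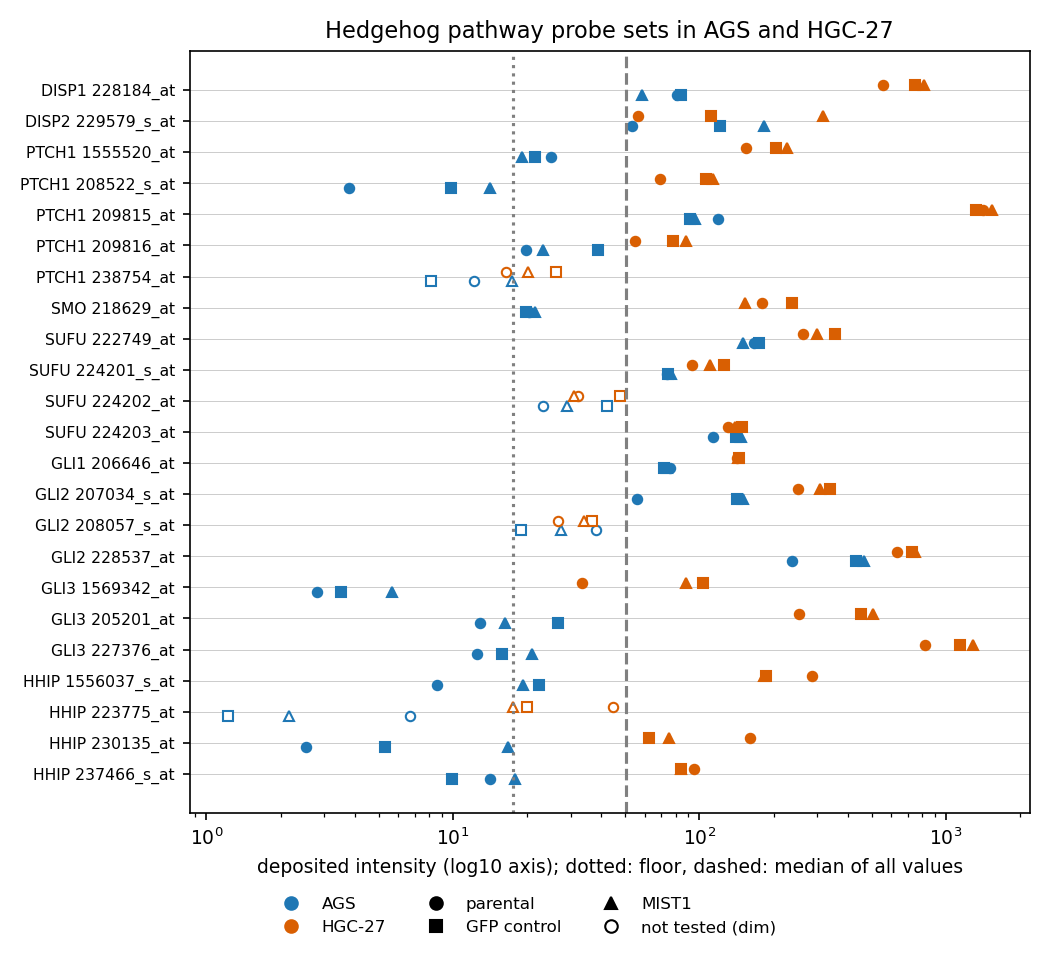
Intensity (log axis) of every member probe set on each of the 6 arrays, coloured by cell line, with 1 point per array. HGC-27 points lie above AGS points for 18 of 23 probe sets. Those of DISP2 and SUFU 224203_at overlap, as do the untested PTCH1 238754_at, SUFU 224202_at and GLI2 208057_s_at.

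PTCH1 encodes the Hedgehog receptor, which is also a transcriptional target of the pathway. Its brightest probe set, 209815_at, read 119, 91.6 and 95.5 (AGS) and 1413, 1324 and 1531 (HGC-27). It was 14.0-fold higher in HGC-27 (log2 difference -3.81, SE 0.13, limma adjusted p = 1.1e-06). The other 3 PTCH1 probe sets tested were higher in HGC-27 as well, by 8.86-fold for 1555520_at, 2.78-fold for 209816_at and at least 5.36-fold for 208522_s_at. The last is a lower bound, because intensities under 17.6 were set to that floor and all its AGS values lay below it. These 3 passed the filter only through the HGC-27 arrays, so their differences are a description. The fifth, 238754_at, was too dim to test, at 8.12 to 26.2.

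The PTCH1 promoter is shown because 1 of its 5 annotated windows holds the GLI consensus GACCACCCA, here as its reverse complement TGGGTGGTC in capitals. The 250 bases lie at chr9:95509267-95509516 on the minus strand (RefSeq, GRCh38.p14).
PTCH1: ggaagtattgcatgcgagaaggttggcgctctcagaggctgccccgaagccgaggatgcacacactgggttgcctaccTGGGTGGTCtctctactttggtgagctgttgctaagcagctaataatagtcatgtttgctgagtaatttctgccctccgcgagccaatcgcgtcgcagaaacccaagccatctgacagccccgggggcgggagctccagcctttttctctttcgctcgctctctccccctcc
That motif, searched on both strands, is in 0.236% of all 35116 windows and in no other window of the member genes that matched. It is a match of letters only.

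HHIP is a membrane protein that binds and sequesters Hedgehog ligand. HHIP 1556037_s_at read 8.61, 22.4 and 19.3 (AGS) and 286, 186 and 182 (HGC-27), at least 10.8-fold higher in HGC-27 (log2 difference -3.44, SE 0.22, limma adjusted p = 2.12e-05). The other probe sets tested, 230135_at and 237466_s_at, were higher in HGC-27 by at least 5.18-fold and 4.96-fold. SMO, the transducing receptor, read 20.4, 19.7 and 21.6 (AGS) and 180, 238 and 153 (HGC-27). It was 9.10-fold higher in HGC-27 (log2 difference -3.19, SE 0.20, limma adjusted p = 1.71e-05), and its AGS arrays were all near the floor. SMO and the tested HHIP probe sets passed the filter only through the HGC-27 arrays, so their differences are a description.

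GLI3, which acts mainly as a repressor without ligand, had the widest gap of the 9 genes. GLI3 227376_at read 12.5, 15.8 and 20.9 (AGS) and 822, 1141 and 1292 (HGC-27). It was at least 57.2-fold higher in HGC-27 (log2 difference -5.84, SE 0.15, limma adjusted p = 4.76e-07). The other GLI3 probe sets were higher by at least 19.2-fold for 205201_at and at least 3.81-fold for 1569342_at. All GLI3 probe sets passed the filter only through the HGC-27 arrays, so their differences are a description. GLI2, the main activator, was nearer in level between lines. GLI2 228537_at read 237, 433 and 464 (AGS) and 631, 728 and 750 (HGC-27). It was 1.93-fold higher in HGC-27 (log2 difference -0.95, SE 0.16, limma adjusted p = 0.00218), and GLI2 207034_s_at was 2.81-fold higher. GLI1 read 75.8, 71.8 and 73.9 (AGS) and 142, 145 and 143 (HGC-27). It was 1.94-fold higher in HGC-27 (log2 difference -0.96, SE 0.14, limma adjusted p = 0.00088). For PTCH1 and HHIP, read as targets like GLI1, the fold ran from 2.78 to 14.0 over the probe sets tested, some of them lower bounds, and the difference of these folds from that of GLI1 was not tested.

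SUFU, the cytoplasmic inhibitor of the GLI proteins, was also close in level between lines. SUFU 222749_at read 166, 175 and 150 (AGS) and 262, 356 and 301 (HGC-27), 1.86-fold higher in HGC-27 (log2 difference -0.90, SE 0.13, limma adjusted p = 0.00113). SUFU 224201_s_at was 1.45-fold higher, but its call was lost without the filter (limma adjusted p = 0.0845) and when any of the 4 transfected arrays was left out (limma adjusted p of 0.0943 to 0.212), within a range of 0.00139 to 0.212 over all alternatives. SUFU 224203_at read 114, 141 and 147 against 131, 149 and 139, so the lines overlapped. Without the filter, the line difference of both GLI2 probe sets and of GLI3 1569342_at also missed the threshold (limma adjusted p of 0.0576 to 0.0715).

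Of the 18 member probe sets tested for MIST1 against GFP control, which leave out DISP2, none passed. The limma fit over both lines called 0 of 25954 probe sets (0%), with 315 at an unadjusted p under 0.05, and 0 of the 18 other member probe sets were among those. A fit of the 4 transfected arrays alone called 61 probe sets, again with 0 of the 18. The members' mean log2 differences ran from -0.28 for PTCH1 209816_at (SE 0.28) to 0.22 for GLI3 227376_at (SE 0.18), with a median of -0.03 against -0.02 for all probe sets tested. PTCH1 209815_at differed by 0.14 (SE 0.16, 95% interval -0.24 to 0.51). GLI1 differed by 0.01 (SE 0.17, 95% interval -0.38 to 0.41). Both intervals include 0 and also include increases of more than 0.3, so the 6 arrays do not exclude an increase of that size.

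Line by line, 3 of these 18 probe sets were at least 1.5-fold lower with MIST1 than with GFP, each in 1 line. In AGS these were PTCH1 209816_at (38.7 to 23.1) and GLI3 205201_at (26.6 to 16.2), where 0.771% of all probe sets tested met that limit. In HGC-27 it was SMO (238 to 153), where 1.22% did. None of the 18 was at least 1.5-fold higher in AGS (1.21% of all) or in HGC-27 (1.25%), nor higher (0.208%) or lower (0.0308%) in both lines. The 2 AGS probe sets were dim. SUFU 224202_at, too dim to be tested, was 1.45-fold lower with MIST1 in AGS (42.1 to 28.9) and 1.53-fold lower in HGC-27 (47.5 to 31.1).

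The parental and GFP control arrays differ by transfection, vector, sorting and handling together. Across all probe sets 171 of 25954 passed the limma test (0.659%), of which 80 were higher (0.308%) and 91 lower (0.351%), and 0 of the 18 member probe sets other than DISP2 did. Of the 18, 4 had an unadjusted p under 0.05, where 5950 of all 25954 did. The members' median log2 difference (GFP control minus parental, over the 18) was 0.24, against 0.07 for all probe sets tested. GLI2 207034_s_at had the lowest adjusted p of them. GLI2 207034_s_at read 55.9, 142 and 150 (AGS) and 252, 340 and 309 (HGC-27), a mean log2 difference of 0.89 (SE 0.28, limma adjusted p = 0.134). GLI2 228537_at differed by 0.54 (SE 0.20, limma adjusted p = 0.178). In both lines and by both probe sets GLI2 was higher in the GFP control, while the remaining dim probe set, 208057_s_at, was 2.02-fold lower in AGS and 1.38-fold higher in HGC-27.

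In HGC-27 the GLI3 and HHIP probe sets lay on opposite sides of their parental values. GLI3 227376_at, 205201_at and 1569342_at were 1.39-fold, 1.78-fold and 3.08-fold above parental in the GFP control. The parental value of 1569342_at, 33.3, lay under the median of all values. All 4 HHIP probe sets were below parental, by 1.54-fold for 1556037_s_at, 2.57-fold for 230135_at and 1.13-fold for 237466_s_at. The remaining one, 223775_at, was 2.24-fold below but too dim to be tested. At a limit of 1.5-fold, 3 of the 18 member probe sets were higher in that line and 2 lower, where 14.6% and 5.32% of all probe sets tested were. In AGS 4 of the 18 were higher and 0 lower, where 7.72% and 7.8% were. GLI3 205201_at was the 1 of the 18 that was higher in both lines (3.05% of all probe sets tested), and 0 were lower in both (2.04%). Its AGS parental value, 12.9, lay under the floor, so its 1.51-fold there is a lower bound. With the floor at the median its AGS difference became 0. The same held for PTCH1 209816_at (19.7 to 38.7), another of the 4 in AGS. GLI3 205201_at (mean log2 difference 0.71, SE 0.26, limma adjusted p = 0.177) and HHIP 230135_at (-0.68, SE 0.36, limma adjusted p = 0.305) did not pass the test. GLI1 differed by -0.03 (SE 0.17). Which array is left out matters here: without the AGS parental array 8 of the 18 passed, without the HGC-27 parental array 3, and without either MIST1 array 1. All probe sets together moved from 171 calls to 9952, 8516, and 1569 or 1645.

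**Figure D3:**
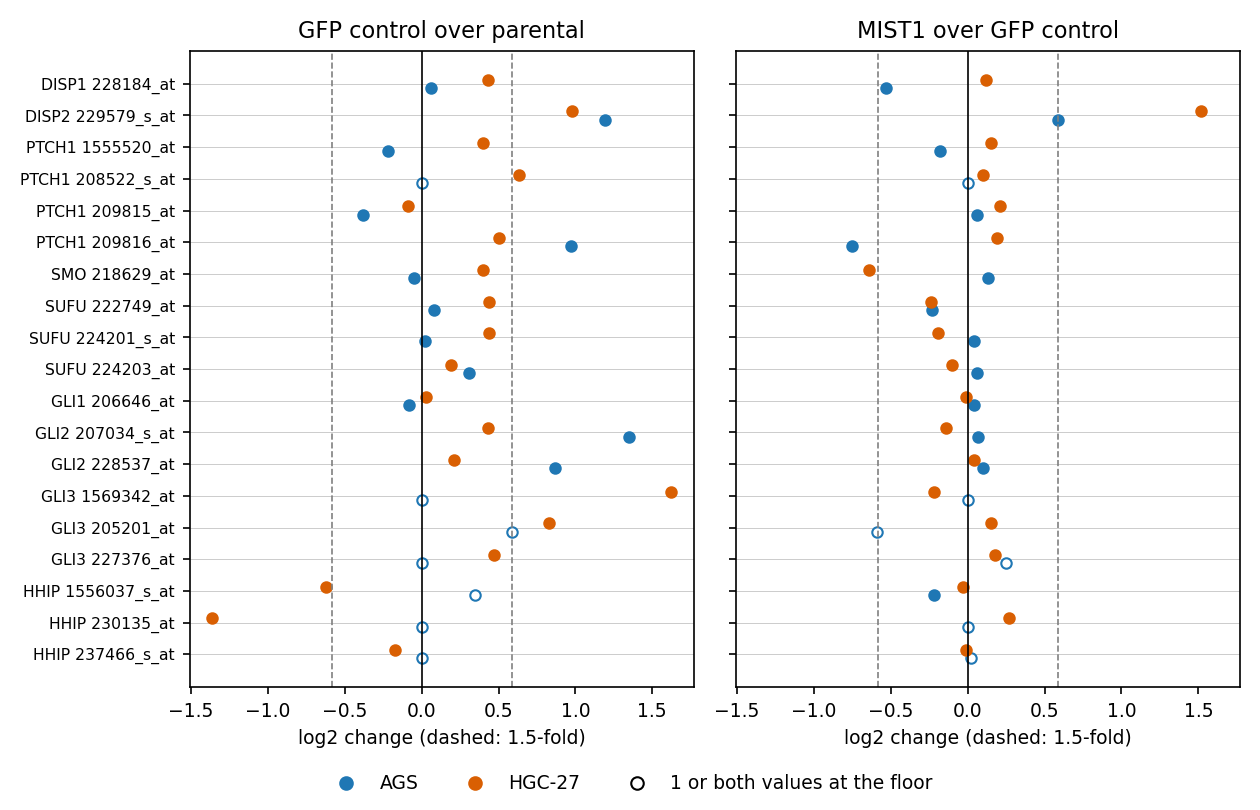
Log2 intensity ratio of each tested member probe set in each line, for GFP control over parental and for MIST1 over GFP control, with 1 value per line and no error bar. DISP2 is above 0 at both steps in both lines, at 1.19 and 0.98 for the former and 0.59 and 1.52 for the latter.

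Further genes of the pathway, from 5 lists chosen with earlier results of these data known, were counted in the same fits. None of the genes tested from these lists passed for MIST1 against GFP control (limma, 0% of probe sets called). For GFP control against parental, 1 passed, where 0.659% of all probe sets did. This was IHH, a Hedgehog ligand, which read 104, 311 and 315 (AGS) and 8.7, 42.2 and 43.3 (HGC-27). IHH rose by at least 1.42 on the log2 scale, a lower bound because its parental HGC-27 value lies under the floor (SE 0.19, limma adjusted p = 0.0442). Its call was lost with no floor (log2 difference 1.93, limma adjusted p = 0.0556), with the floor at the median (0.79, limma adjusted p = 0.316), without the filter (limma adjusted p = 0.206), with no trend (0.103), with 1 probe set per gene (0.0528) and without cell line as a block (1). Quantile normalization kept it, and over all alternatives its adjusted p ran from 2.94e-05 to 1. GPC3, a cell-surface proteoglycan that competes for the ligand, and KIF7, a ciliary kinesin that regulates GLI, were at least 1.5-fold above parental in both lines without passing (limma adjusted p = 0.0818 and 0.0754). SHH was dim, at 16.4 to 51.8.

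Between the lines, CDON, BOC and GAS1, co-receptors that present ligand to PTCH1, were higher in HGC-27. Of 4 receptor and co-receptor genes tested 3 were called higher in HGC-27, where 26.9% of probe sets were, and 0 higher in AGS. The 3 passed the filter only through the HGC-27 arrays, so the count and the list's median log2 difference of -3.68 (0.07 for all probe sets tested) are a description. LRP2, a large endocytic receptor of the same list, did not pass the filter, at 42.1 to 64.7 in AGS and 31.7 to 44.6 in HGC-27. CDON read 16.2, 15.4 and 20.3 (AGS) and 264, 317 and 274 (HGC-27). BOC read 13.3, 18.1 and 14.1 against 149, 209 and 216. GAS1, a membrane-anchored co-receptor, read 5.1, 5.37 and 7.59 against 499, 573 and 625. All 3 were therefore at or near the floor in AGS, and at least 15.4-fold, 10.6-fold and 32-fold higher in HGC-27. PTCH1, SMO and all 3 co-receptors thus had their lower level in the same line.

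Ligand genes and regulators were called in both directions. Of 8 ligand and ligand-processing genes tested, 4 were called higher in AGS, where 32.9% of probe sets were, and 2 higher in HGC-27. IHH was at least 6.82-fold higher in AGS (limma adjusted p = 9.65e-06), and the glypican GPC6 at least 20.3-fold higher in HGC-27. IHH passed the filter only through the AGS arrays and GPC6 only through the HGC-27 arrays. Their differences, and the counts that include them, are therefore a description. Of 26 cytoplasmic and ciliary regulators, 12 were called higher in AGS (32.9% of all probe sets tested) and 11 higher in HGC-27 (26.9%). GPR161, a ciliary receptor that restrains the pathway, was 8.29-fold higher in AGS (limma adjusted p = 5.39e-06). KIF7 was at least 3.43-fold higher in HGC-27 and the kinase subunit gene PRKACB 2.84-fold. Of 5 relatives of Dispatched and Patched, 2 were called higher in AGS and 3 in HGC-27, beside the same 32.9% and 26.9%. PTCHD1 was at least 12.6-fold higher in HGC-27 and NPC1, a cholesterol transporter, 2.73-fold higher in AGS. PTCHD1 also passed the filter only through the HGC-27 arrays.

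Of 16 genes reported as GLI targets, 5 were called higher in AGS (32.9% of all probe sets tested) and 6 higher in HGC-27 (26.9%), with a median log2 difference of -0.06. These counts lie near the background and are no result about the targets as a group. The cyclin gene CCND2 read 17.8, 22.3 and 15.9 (AGS) and 4007, 3569 and 3543 (HGC-27), at least 194-fold higher. FOXF1, a mesenchymal transcription factor, read 9.41, 6.42 and 13.5 against 321, 804 and 950. PAX6, JAG2 and the survival gene BCL2 were also higher in HGC-27, by at least 19.9-fold, by 14.8-fold and by at least 7.92-fold. CCND2, FOXF1, PAX6 and BCL2 passed the filter only through the HGC-27 arrays, so their differences are a description. The cyclin gene CCNE1 was 5.25-fold higher in AGS.

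**Figure D4:**
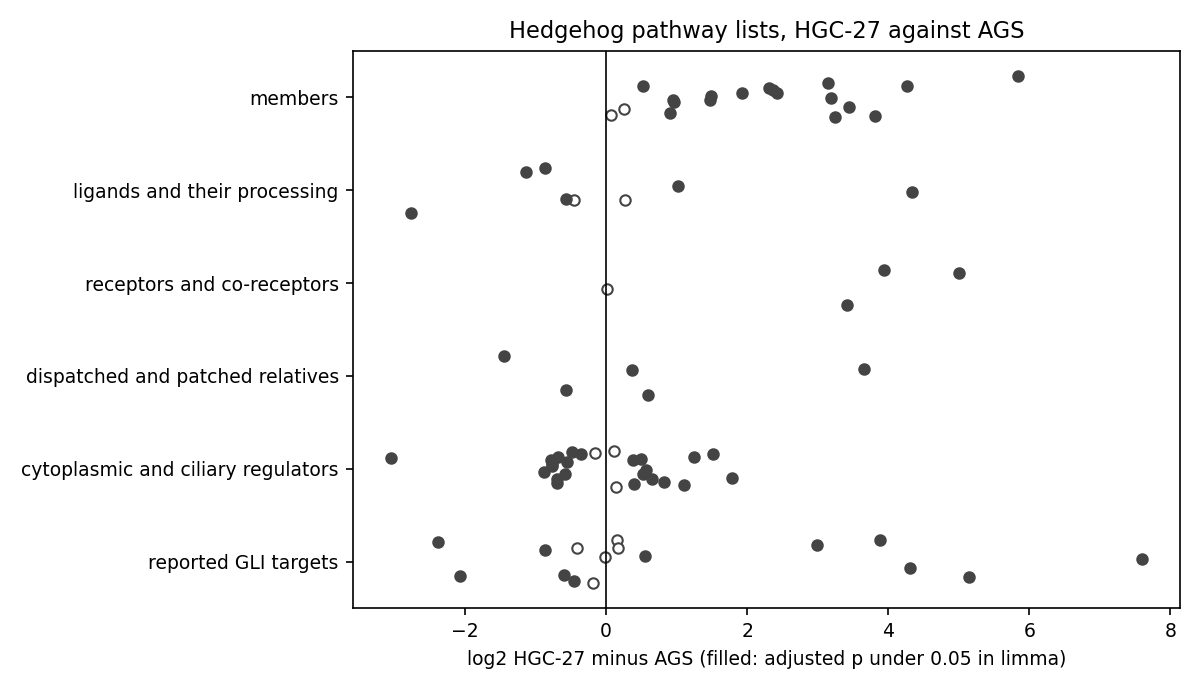
Log2 difference (HGC-27 minus AGS, limma) of each tested member probe set and of each tested gene of the 5 lists, 1 point each. Receptors and co-receptors lie to the side of HGC-27, and the reported GLI targets spread to both sides. Taken as AGS minus HGC-27, as in the text, their medians are -3.68 and -0.06.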

How the data were processed

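The authors deposited 1 table of intensity per probe set for 6 arrays (54675 probe sets). The series' design text names dChip. The background correction and scaling are not given in the sources used here. Probe sets with 1 gene in the platform annotation were kept (41097), with symbols updated by gene ID in RefSeq for 41043. Those listing several genes (1801) or none (11777) were left out.

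Intensities under the 25th percentile of all values (17.6) were set to it and log2 was taken. Probe sets above the median of all values (50.53) on at least 2 arrays were tested (25954). The design was written for intensities. limma 3.58.1 in R 4.3.3, with lmFit and trended eBayes, fitted condition with cell line as a block over all 6 arrays, two-sided, with Benjamini-Hochberg adjustment over all probe sets and a threshold of 0.05. The arrays are paired by line, since each line gave all 3 conditions. Residual degrees of freedom were 2, with 4.66 from the prior. Nothing in the labels gives separate cultures within a line, so p-values measure the spread between these arrays only. The number of arrays limits the precision. Folds within a line, against a limit of 1.5, have no test. The fit was tested on simulated data.

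The members and lists were chosen with earlier results of these data known. DISP2 was left out of member counts in both condition comparisons, since the arrays compared had chosen it. The lists named, beside the members, genes called or at least 1.5-fold the same way in both lines, at most 6 per list and comparison by absolute mean log2 difference, from the brightest probe set of a gene, plus the 5 genes most like DISP2 and its 3 measured neighbours on each side. KIAA0513 and PRODHLP came from a count made after seeing the data. Promoter windows were 250 bases before to 50 after a start, from RefSeq (GRCh38.p14), and 7 of 9 members matched. Alternatives varied the floor, the filter, the fold limit, normalization (quantile), trend, probe sets per gene, the block, the arrays fitted and each array left out.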

Additional observations from a re-analysis of the deposited data

How the results depend on the processing

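No test of MIST1 against GFP control passed in the fit of all 6 arrays, and leaving out 1 array at a time gave 5 to 57 calls and the 4 transfected arrays alone 61, with none of the 18 member probe sets other than DISP2 among them. For GFP control against parental the 171 calls became 52 when no floor was set, 0 with the floor at the median, 0 without the filter, 503 after quantile normalization, 0 with no trend, 34 with 1 probe set per gene and 1 with the mean of the probe sets of a gene. Leaving out 1 array gave 346 to 9952 calls, and the 4 arrays of that comparison alone 1598. The count of member probe sets went from 0 to between 0 and 8 with 1 array left out, and to 1 with those 4 arrays. These fits leave 1 residual degree of freedom, and several took their spread almost wholly from the prior. The cause of the other shifts was not tested. Without the replicate block, which is the cell line here, GFP control against parental had 0 calls. MIST1 against GFP control had 0 calls with or without it.

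Between AGS and HGC-27 the 15525 calls became 8303 genes with 1 probe set per gene and 8335 with the mean, of 13738 genes tested; the 17 member probe sets became 8 genes in both, which follows from counting genes. The 1587 probe sets at least 4-fold higher in HGC-27 are those left by that added limit, and 229 of them were above the median on all 6 arrays. The 30 probe sets above both controls became 172 at a limit of 1.2-fold, 5 at 2-fold and 18 with 1 probe set per gene. They became 32 to 130 with 1 array left out, the highest without the AGS MIST1 array, since fewer conditions must then be met. DISP2, which was chosen by these values, met the limit in every setting tried for it apart from the 2-fold limit.

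Small differences changed sign. PTCH1 209816_at, MIST1 against GFP control, went from -0.28 to 0.09 with the floor at the median, and ran from -0.63 to 0.07 with 1 array left out. PTCH1 209815_at ran from -0.01 to 0.28, and GLI1 from -0.03 to 0.05. DISP2 between the lines ran from -0.44 to 0.02, the last without either MIST1 array. Quantile normalization took the median HGC-27 difference of GFP control from parental from 0.14 to 0.03 and turned GLI1 there from 0.03 to -0.17. Signal over background limits AGS, where GLI3, HHIP, SMO and most PTCH1 probe sets lie near the floor.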

Other observations

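Some of the 16 reported GLI targets tested were far above parental in the GFP control of HGC-27. BMP4 and IGFBP6 were not so in AGS, where FOXF1 was too dim to read. For this comparison all 3 fall outside the rule for naming genes: their choice came after their values were seen. In HGC-27, 14.6% of all probe sets tested were at least 1.5-fold above parental in the GFP control. Of the other targets tested, HSD11B2 was also higher in that control than in parental cells (57.4 against 29.7). CCND1, CCND2, MYCN, FOXM1, FST, PAX6 and TSC22D1 were below parental there. The genes named are therefore no result about the targets as a group. BMP4, a secreted growth factor, read 40.7, 255 and 316 (HGC-27: parental, GFP control, MIST1) and 165, 144 and 145 (AGS). IGFBP6, which binds insulin-like growth factors, read 405, 1419 and 1378 in HGC-27 and 1009, 1014 and 1137 in AGS. FOXF1 had 321, 804 and 950 in HGC-27. The mean over both lines did not pass for BMP4, IGFBP6 or FOXF1 (limma adjusted p = 0.33, 0.233 and 0.322), and the difference between the lines was not tested. In the same arrays of HGC-27, HHIP 230135_at read 161, 62.5 and 75.3, and GLI1 142, 145 and 143.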
